A study of Rattus norvegicus with 2 samples.

Results

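The genes described here are 34 genes of sugar and energy metabolism. They are 15 glycolysis enzyme genes, 3 glucose and lactate transporter genes, 3 hypoxia-responsive genes, 12 citric acid cycle genes and Pck2, which is set beside them. Members were listed by symbol and looked up among the 25399 genes of the deposited table. Of the 34 symbols 33 were matched, and counts of Ogdh are not analysed here. A gene was called measured when the library with the higher level reached at least 20 counts per 1000000 unique molecular identifiers (UMIs), written CPM below. By this rule 25 members were measured, among 4823 measured genes in all.

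The counts came from droplet single-cell RNA sequencing of cultured neural stem cells, bought commercially and derived from cortex of Sprague-Dawley rat embryos at E14.5. All cells stayed in complete medium containing FGF2, which inhibits differentiation. The treated culture was given ZD7288, which blocks the hyperpolarisation-activated HCN cation channels, at 30 µM in DMSO at a final 0.2%, and the control culture the same DMSO vehicle alone. Exposure lasted 48 h with medium renewed at 24 h, and a label of the treated sample spells the compound ZD2788. Each group was 1 library, so culture, library and treatment cannot be told apart, and no difference below has a replicate check or a test. Values are given with exact 95% intervals that cover counting error only.

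Glycolysis splits glucose into pyruvate in the cytosol. Lactate dehydrogenase turns pyruvate into lactate, and the pyruvate dehydrogenase complex passes it to the citric acid cycle of the mitochondrion. When oxygen is low, hypoxia-inducible factor (HIF) is no longer degraded and raises transcription of most glycolysis enzymes, of glucose and lactate transporters and of genes such as Pdk1, Bnip3 and Vegfa. Proliferating neural stem cells are known for a high rate of glycolysis. Pck2 encodes the mitochondrial phosphoenolpyruvate carboxykinase, which makes phosphoenolpyruvate from oxaloacetate, and it is a known target of the stress-response factor ATF4.

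The promoters of 6 members on which the results turn are shown here, because HIF and ATF4 bind known short motifs. Each window runs from 250 bases before to 50 bases after the start of the gene and was taken from RefSeq (build GRCr8). The windows are chr1:106507842-106508141 on the plus strand for Ldha, chr20:10663715-10664014 on the plus strand for Pfkl and chr5:138002272-138002571 on the plus strand for Slc2a1. They are chr3:77113264-77113563 on the plus strand for Pdk1, chr1:203154913-203155212 on the minus strand for Bnip3 and chr15:32997603-32997902 on the plus strand for Pck2. Capitals mark the HIF core motifs ACGTG and GCGTG on either strand in the first 5, and the ATF4 composite motif TGATGNAAN on the opposite strand in Pck2.
Ldha: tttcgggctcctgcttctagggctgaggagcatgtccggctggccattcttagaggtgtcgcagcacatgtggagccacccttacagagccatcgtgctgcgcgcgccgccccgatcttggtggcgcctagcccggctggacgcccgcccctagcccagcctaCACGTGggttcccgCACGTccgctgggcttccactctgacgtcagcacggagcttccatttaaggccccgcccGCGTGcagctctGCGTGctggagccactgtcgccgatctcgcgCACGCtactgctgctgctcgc
Pfkl: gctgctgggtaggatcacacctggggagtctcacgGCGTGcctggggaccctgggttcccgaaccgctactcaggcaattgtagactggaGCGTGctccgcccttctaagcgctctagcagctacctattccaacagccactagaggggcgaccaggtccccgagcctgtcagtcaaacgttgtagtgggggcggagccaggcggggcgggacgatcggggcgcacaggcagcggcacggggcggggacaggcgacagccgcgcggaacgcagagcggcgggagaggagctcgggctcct
Slc2a1: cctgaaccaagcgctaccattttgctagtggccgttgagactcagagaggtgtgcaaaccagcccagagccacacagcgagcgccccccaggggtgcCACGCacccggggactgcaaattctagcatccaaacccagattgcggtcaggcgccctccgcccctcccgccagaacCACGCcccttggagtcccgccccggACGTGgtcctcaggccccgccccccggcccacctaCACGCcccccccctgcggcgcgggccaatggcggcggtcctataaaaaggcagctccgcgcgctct
Pdk1: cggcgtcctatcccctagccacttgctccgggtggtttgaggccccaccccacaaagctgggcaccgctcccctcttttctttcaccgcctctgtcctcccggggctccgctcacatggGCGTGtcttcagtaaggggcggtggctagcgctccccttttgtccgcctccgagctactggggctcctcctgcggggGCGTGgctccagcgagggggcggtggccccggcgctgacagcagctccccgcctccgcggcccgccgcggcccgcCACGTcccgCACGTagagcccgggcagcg
Bnip3: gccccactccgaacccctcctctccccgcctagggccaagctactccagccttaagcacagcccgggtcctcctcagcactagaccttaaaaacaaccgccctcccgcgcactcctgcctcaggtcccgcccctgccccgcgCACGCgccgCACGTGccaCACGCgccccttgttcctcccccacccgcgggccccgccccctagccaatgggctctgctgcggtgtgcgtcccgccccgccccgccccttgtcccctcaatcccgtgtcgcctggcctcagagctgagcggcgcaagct
Pck2: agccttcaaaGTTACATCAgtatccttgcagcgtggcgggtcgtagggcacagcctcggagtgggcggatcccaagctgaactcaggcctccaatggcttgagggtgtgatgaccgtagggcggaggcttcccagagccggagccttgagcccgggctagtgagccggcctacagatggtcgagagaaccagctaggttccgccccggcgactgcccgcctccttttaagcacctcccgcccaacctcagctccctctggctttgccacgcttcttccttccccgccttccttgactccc

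Searched on both strands, ACGTG was in 19.3% and GCGTG in 29.7% of 33469 rat promoter windows of this length, and either was in 41.6%. CACGTG, present in the Ldha and Bnip3 windows, holds ACGTG on both strands. Among the members 28 had a window, and 17 of these held either HIF core motif. These were 8 of 11 glycolysis enzyme genes, 2 of 3 transporter genes, 2 of 2 hypoxia-responsive genes, 4 of 11 citric acid cycle genes and Pck2. The citric acid cycle windows include that of Ogdh, which held both core motifs but whose gene was not matched in the counts. TGATGNAAN was in 3.97% of all windows and in 1 of the 28 member windows, that of Pck2. A match describes the letters of the window and does not show binding. Hk1, Aldoa, Pgk1, Eno1, Vegfa and Idh3a had no entry.

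After filtering, the ZD7288 library held 3135 cells with a median of 23001 UMIs and the vehicle library 732 cells with a median of 17119 UMIs. Mitochondrially encoded genes took a median of 4.70% of UMIs per ZD7288 cell and 5.84% per vehicle cell. Of the 11 neural stem cell markers 8 were measured, and Vim, Fabp7, Sox2 and Nes had high levels in both libraries. By the size rule given below 2 of the 8 were higher with ZD7288, against 26.9% of all measured genes, and 3 lower, against 13.5%. Slc1a3 had 294 CPM with ZD7288 and 186 CPM with vehicle, and Msi1 36.0 CPM with ZD7288 and 18.6 CPM with vehicle. Fabp7 had 2023 CPM with ZD7288 and 2647 CPM with vehicle, and Sox9 78.2 CPM with ZD7288 and 137.5 CPM with vehicle. Hes1 had 14.4 CPM with ZD7288 and 25.5 CPM with vehicle. Not measured were Pax6, at 12.5 CPM with ZD7288 and 12.3 CPM with vehicle, and Prom1, at 0.502 CPM with ZD7288 and 1.67 CPM with vehicle. Nor was Hes5, which had 3 UMIs with ZD7288 and 4 with vehicle. The 7 oligodendrocyte precursor markers summed to 1234 CPM with ZD7288 and 2270 CPM with vehicle. Most of this was Olig1, at 896 CPM with ZD7288 and 1687 CPM with vehicle. Sox10 and Mbp each had 10 UMIs with ZD7288 and 3 with vehicle, and Pdgfra had 8 with ZD7288 and 22 with vehicle. All 6 microglia markers were at 0 or 1 UMI in both libraries, and the 7 matched vascular and mesenchymal markers summed to 489 UMIs with ZD7288 and 2 with vehicle. The 6 astrocyte markers summed to 46.7 CPM with ZD7288 and 33.6 CPM with vehicle, mostly Gja1, while Gfap and Aqp4 had at most 4 UMIs. The 8 neuron markers summed to 186 CPM with ZD7288 and 171 CPM with vehicle, with Gap43 at 103 CPM with ZD7288 and 67.7 CPM with vehicle, Map2 at 65.0 CPM with ZD7288 and 96.5 CPM with vehicle, and Dcx at 18 UMIs with ZD7288 and 1 with vehicle. The part of these markers in the results below was not tested. The 3 barcode sequences found in both libraries were counted in each. Over all measured genes the median log2 ratio of ZD7288 to vehicle was 0.09.

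As a group, the glycolysis enzymes were close to this median, the citric acid cycle genes lay at or slightly above it, and Pck2 was more than 10-fold above it. A measured gene was counted as higher or lower where the log2 ratio of ZD7288 to vehicle CPM reached 0.32 in that direction, called the size rule below. Of the 25 measured members 6 were higher, against 26.9% of all measured genes, and 3 were lower, against 13.5%. The higher members were Aldoa, Pgam1, Idh2, Mdh1, Mdh2 and Pck2, and the lower members were Pfkl, Pfkm and Bnip3. The first share, 6 of 25, lies near that of all genes, and so does the second. At a ratio of 1.5-fold, Pck2 was the 1 higher member, against 10.1% of all measured genes, and Pfkl the 1 lower member, against 5.2%. The plot of levels by library shows each measured member.

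**Figure D1:**
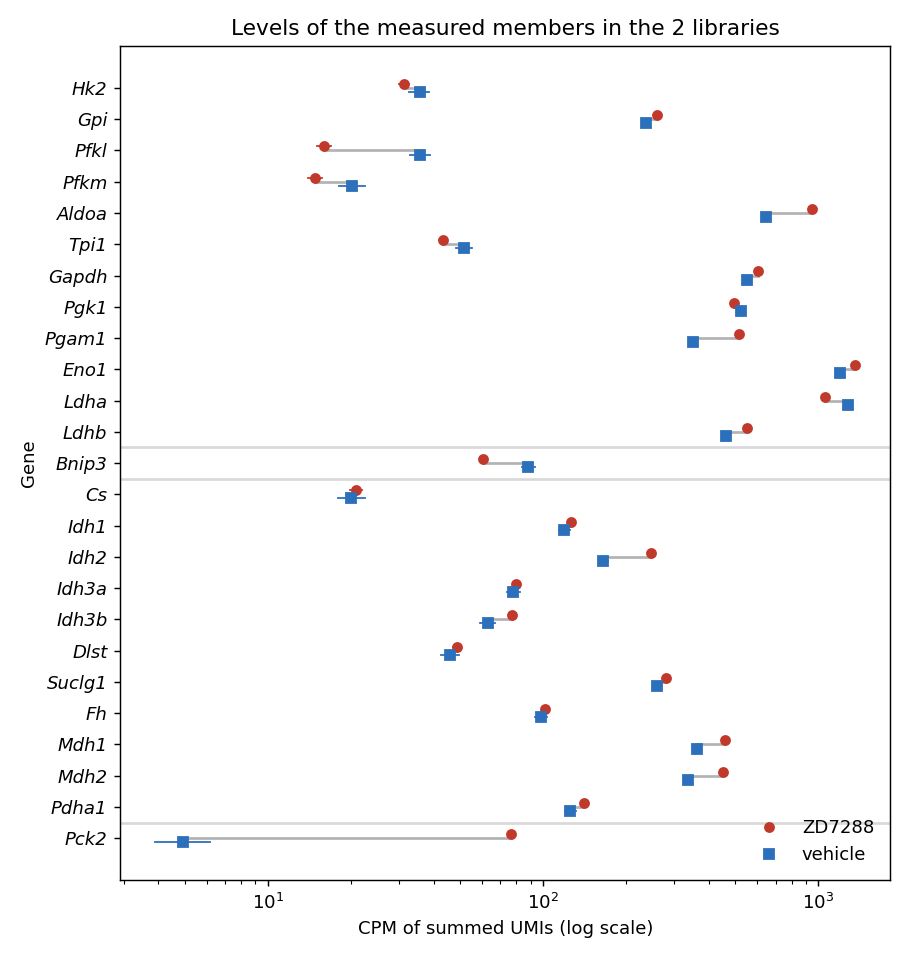
Levels of the 25 measured members in CPM of summed UMIs (log axis), with ZD7288 as red circles above vehicle as blue squares in each row; bars are exact 95% Poisson intervals for counting error, and grey lines part the gene groups. Pck2 has the widest gap, at 76.3 CPM with ZD7288 and 4.93 CPM with vehicle, and most glycolysis and citric acid cycle genes differ little.

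Glycolysis enzyme genes together made up 5896 CPM in the ZD7288 library and 5382 CPM in the vehicle library, a ratio of 1.10 (1.09 to 1.10). Of 12 measured enzymes 2 were higher, against 26.9% of all measured genes, and 2 lower, against 13.5%. The share of lower enzymes lies near that of all genes. The median log2 ratio of the enzymes was 0.02, with a range of -1.16 to 0.56. It was -0.07 when the libraries were scaled by the median gene ratio. The 8 genes of the preparatory steps, from hexokinase to triosephosphate isomerase, summed to 1316 CPM with ZD7288 and 1024 CPM with vehicle. Most of that sum was Aldoa, and 4 of the 6 measured genes of these steps had ratios below 1, with a median log2 ratio of -0.22. The 5 genes of the payoff steps, from glyceraldehyde-3-phosphate dehydrogenase to pyruvate kinase, summed to 2969 CPM with ZD7288 and 2621 CPM with vehicle. Lactate dehydrogenase genes summed to 1612 CPM with ZD7288 and 1738 CPM with vehicle, a ratio of 0.928 (0.915 to 0.940).

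Hexokinase traps glucose in the cell as its phosphate. Hk2 had 31.3 CPM with ZD7288 and 35.6 CPM with vehicle, a ratio of 0.880 (0.802 to 0.968). Hk1 had 34 UMIs with ZD7288 and 5 with vehicle and was not measured. Hk2 therefore held nearly all hexokinase UMIs of both libraries. Gpi, which encodes the isomerase that follows, had 259 CPM with ZD7288 and 236 CPM with vehicle, so it was close to the median of all genes at a log2 ratio of 0.14.

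Phosphofructokinase catalyses the committed step, and its measured subunits had the lowest ratios among the measured enzymes. Pfkl, the liver-type subunit gene, had 16.0 CPM (15.1 to 16.9) with ZD7288 and 35.8 CPM (32.9 to 38.9) with vehicle, so it was 2.24-fold lower (2.02 to 2.48). Pfkm, the muscle-type subunit gene, had 14.8 CPM with ZD7288 and 20.2 CPM with vehicle, or 1.36-fold lower (1.20 to 1.55). Pfkp, the platelet-type subunit gene, was not measured, with 255 UMIs under ZD7288 and 24 under vehicle. The make-up of the phosphofructokinase UMIs thus differed between the libraries. Pfkl held 46.7% (44.7 to 48.6) of them with ZD7288 and 62.2% (58.9 to 65.4) with vehicle. Pfkp held 10.1% (8.94 to 11.3) with ZD7288 and 2.67% (1.72 to 3.95) with vehicle.

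Aldolase and triosephosphate isomerase, which produce and interconvert the 3-carbon sugars, lay on opposite sides of 1. Aldoa had 947 CPM (940.1 to 954) with ZD7288 and 644 CPM (631 to 656) with vehicle, a ratio of 1.47 (1.44 to 1.503). Tpi1 had 43.2 CPM with ZD7288 and 51.6 CPM with vehicle, a ratio of 0.838 (0.776 to 0.907) that did not reach the size rule. Of the aldolase UMIs, Aldoc, a non-member, held 3.63% with ZD7288 and 5.35% with vehicle.

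In the payoff steps Pgam1, the phosphoglycerate mutase gene, stood out from its neighbours with a ratio of 1.47 (1.43 to 1.51). It had 515 CPM (509.8 to 520.2) with ZD7288 and 350.4 CPM (341 to 359.8) with vehicle. Gapdh, which makes NADH at this stage, had 602 CPM with ZD7288 and 548 CPM with vehicle. Pgk1, which makes the first ATP, had 493 CPM with ZD7288 and 525 CPM with vehicle. Both ratios, 1.10 for Gapdh and 0.939 for Pgk1, were nearer to 1 than that of Pgam1. Eno1, the enolase gene, had 1356 CPM with ZD7288 and 1195 CPM with vehicle. Pkm, the pyruvate kinase gene, had 2.70 CPM with ZD7288 and 2.31 CPM with vehicle, far under the other steps. These are 3′ end counts, and whether reads from the 3′ ends of Pkm and Hk1 were assigned to them was not tested, so their low counts do not show low expression. Several enzyme genes, among them Gapdh, Ldha and Aldoa, have near-identical pseudogenes in rodents, so their levels are uncertain where the counting could split reads between copies.

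The lactate dehydrogenase subunits differed in direction. Ldha, whose subunit is known for favouring lactate formation, had 1061 CPM (1054 to 1069) with ZD7288 and 1277 CPM (1259 to 1295) with vehicle. Ldhb had 550.5 CPM (545 to 556) with ZD7288 and 460.4 CPM (449.8 to 471) with vehicle. Neither reached the size rule, with ratios of 0.831 for Ldha and 1.196 for Ldhb. The Ldha share of both was 65.8% (65.6 to 66.1) with ZD7288 and 73.5% (73.0 to 74.0) with vehicle.

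The 3 transporter genes were not measured at the 20 CPM rule. Slc2a1, the gene of glucose transporter GLUT1, had 13.7 CPM with ZD7288 and 13.5 CPM with vehicle. Slc16a1 and Slc16a3 encode monocarboxylate transporters that carry lactate, the second of them known as a HIF target. Slc16a1 had 215 UMIs with ZD7288 and 28 with vehicle, a ratio of 1.63 (1.09 to 2.51). Slc16a3 had 2 UMIs in the larger ZD7288 library and 13 in the vehicle library, a ratio of 0.0326 (0.00357 to 0.144).

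Of the hypoxia-responsive genes Bnip3 and Pdk1 were lower with ZD7288 and Vegfa was not. Bnip3, a mitophagy receptor gene and the measured one of the 3, had 60.6 CPM (58.8 to 62.4) with ZD7288 and 88.5 CPM (83.9 to 93.3) with vehicle, or 1.46-fold lower (1.37 to 1.55). Pdk1 encodes a kinase that switches pyruvate dehydrogenase off. It had 5.23 CPM with ZD7288 and 11.9 CPM with vehicle, or 2.28-fold lower (1.90 to 2.72), under the level called measured. Vegfa, the gene of a vascular growth factor, had 12.3 CPM with ZD7288 and 9.99 CPM with vehicle, a ratio of 1.23 (1.04 to 1.47). The 3 genes together summed to 78.1 CPM with ZD7288 and 110.4 CPM with vehicle.

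All 11 measured citric acid cycle genes had CPM ratios above 1, and 6 of 11 did when the libraries were scaled by the median gene ratio. Of them 3 reached the size rule, and the median log2 ratio was 0.10. Over all measured genes the median was 0.09, so most of those genes also lay above 1 before that scaling. By the size rule 0 of the 11 were lower, against 13.5% of all measured genes. Together the 11 made up 2028 CPM with ZD7288 and 1675 CPM with vehicle, a ratio of 1.21 (1.19 to 1.23). The 3 of 11 that were higher lie near the 26.9% of all measured genes. Idh2, the mitochondrial NADP-dependent isocitrate dehydrogenase gene, had 246 CPM (242 to 249) with ZD7288 and 165 CPM (159 to 172) with vehicle, a ratio of 1.49 (1.43 to 1.55). Mdh2, the mitochondrial malate dehydrogenase gene, had 450.1 CPM with ZD7288 and 337 CPM with vehicle, a ratio of 1.34 (1.30 to 1.38). Mdh1, its cytosolic counterpart, had 457 CPM with ZD7288 and 363 CPM with vehicle, a ratio of 1.26 (1.22 to 1.29) at the edge of the rule.

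The other cycle genes differed little between the libraries. Cs, which encodes citrate synthase at the entry of the cycle, had 20.9 CPM with ZD7288 and 20.1 CPM with vehicle. Pdha1, a subunit of pyruvate dehydrogenase, had 141 CPM with ZD7288 and 126 CPM with vehicle. Idh1, the cytosolic NADP-dependent enzyme, had 127 CPM with ZD7288 and 119.5 CPM with vehicle, and its share of the Idh1 and Idh2 UMIs was 34.02% (33.5 to 34.6) with ZD7288 and 42.0% (40.5 to 43.4) with vehicle. For the NAD-dependent isocitrate dehydrogenase subunits, Idh3a had 79.5 CPM with ZD7288 and 78.0 CPM with vehicle, and Idh3b had 77.0 CPM with ZD7288 and 62.8 CPM with vehicle. Of these, Idh3b came nearest to the rule, at a ratio of 1.23 (1.15 to 1.31). Dlst, of the oxoglutarate dehydrogenase complex, had 48.7 CPM with ZD7288 and 45.9 CPM with vehicle. Suclg1, of succinyl-CoA ligase, had 279 CPM with ZD7288 and 259.7 CPM with vehicle, and Fh, the fumarase gene, had 102 CPM with ZD7288 and 98.3 CPM with vehicle. Their ratios lay between 1.03 and 1.08.

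Pck2 had 76.3 CPM (74.3 to 78.3) with ZD7288 and 4.93 CPM (3.89 to 6.16) with vehicle, a ratio of 15.5 (12.4 to 19.6). With every cell thinned to 2000 UMIs, a Pck2 UMI was found in 404 of 2956 ZD7288 cells, or 13.7% (12.4 to 14.96), and in 5 of 724 vehicle cells, or 0.691% (0.225 to 1.60). Without thinning the shares were 68.9% with ZD7288 and 9.43% with vehicle. No cell class known to lack Pck2 was set apart, so the part of free RNA in these shares was not measured. Among the gluconeogenesis genes outside the members, G6pc3, a glucose-6-phosphatase gene, was the measured one, at 45.2 CPM with ZD7288 and 27.2 CPM with vehicle. The 3 others matched, Pck1, Fbp1 and Fbp2, summed to at most 4 UMIs in either library.

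Neighbouring genes of the same pathways are given by counts. Of 7 other measured glycolysis genes 3 were higher, against 26.9% of all measured genes, and 0 lower, against 13.5%. The ratio was 1.76 for the phosphoglucomutase gene Pgm2 and 1.56 for the ADP-dependent glucokinase gene Adpgk. It was 1.499 for the glycerol phosphate dehydrogenase gene Gpd2. Of 10 other measured hypoxia genes 3 were higher, against 26.9% of all measured genes, and 4 lower, against 13.5%. The 4 that lay farthest from 1 were Ddit4, at 54.6 CPM with ZD7288 and 19.7 CPM with vehicle, Adm, at 89.3 CPM with ZD7288 and 43.8 CPM with vehicle, Bnip3l, at 113 CPM with ZD7288 and 167 CPM with vehicle, and Ero1a, at 22.0 CPM with ZD7288 and 15.4 CPM with vehicle. Bnip3l is a relative of Bnip3, Adm encodes the peptide adrenomedullin and Ero1a an oxidase of the endoplasmic reticulum. The hypoxia genes therefore did not share a direction.

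Of 24 other measured citric acid cycle and pyruvate genes 9 were higher, against 26.9% of all measured genes, and 3 lower, against 13.5%. The median log2 ratio of the 24 was 0.26. The list also takes in linked genes such as Slc1a5 and Got1, so these values do not describe the cycle and pyruvate steps alone. The glutamine transporter gene Slc1a5 had 269.9 CPM with ZD7288 and 70.1 CPM with vehicle, a ratio of 3.85 (3.62 to 4.10). The malic enzyme gene Me1 had a ratio of 2.30, the aspartate transaminase gene Got1 1.92 and the pyruvate dehydrogenase component gene Pdhx 1.78.

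The libraries differed more in how glycolysis RNA was spread over cells than in its sum. In cells of at least 5000 UMIs the median level of the 15 enzyme genes was 5906 CPM in 2838 ZD7288 cells and 4986 CPM in 710 vehicle cells. The 95th percentile was 7592 CPM with ZD7288 and 9666 CPM with vehicle, and the highest cell reached 9294 CPM with ZD7288 and 24703 CPM with vehicle. With each cell thinned to 5000 UMIs, enzyme UMIs per cell averaged 29.6 with an SD of 6.77 over ZD7288 cells, and 27.7 with an SD of 14.1 over vehicle cells. Counting error alone gives an SD of 5.44 with ZD7288 and 5.26 with vehicle. Citric acid cycle UMIs had no such tail, with SDs of 3.43 in each library around means of 10.2 with ZD7288 and 8.43 with vehicle. Cells are not replicates, and these SDs describe the cells of 1 library each.

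**Figure D2:**
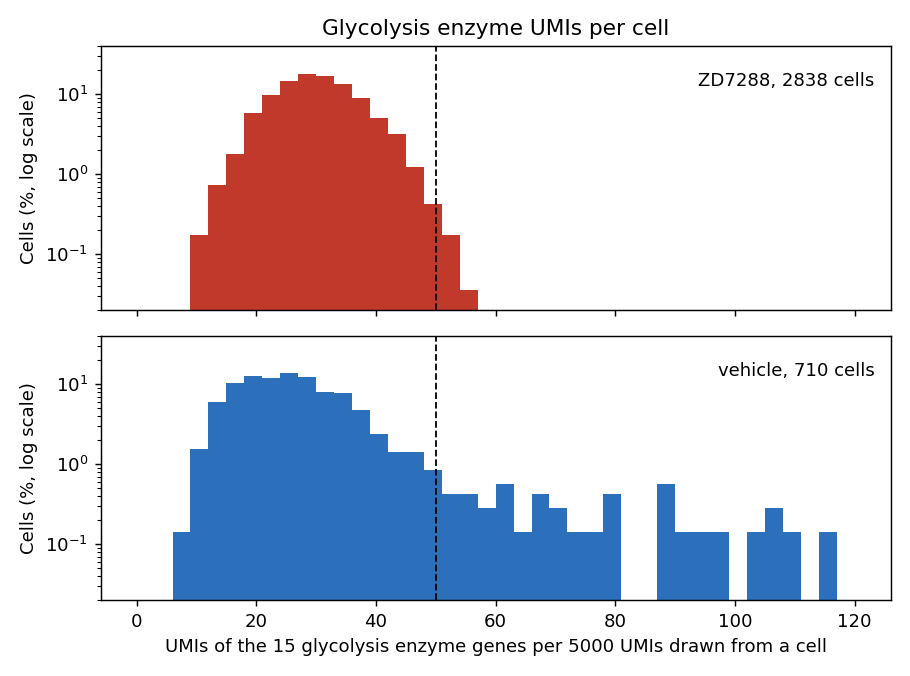
UMIs of the 15 glycolysis enzyme genes per 5000 UMIs drawn from each cell (x axis) against the percent of cells (log axis), ZD7288 in the upper and vehicle in the lower panel; the dashed line marks 50 UMIs. The vehicle panel has a tail of cells that reaches 115 UMIs, while the ZD7288 panel ends at 55 UMIs.

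At least 50 enzyme UMIs per 5000 were found in 11 of 2838 ZD7288 cells, or 0.388% (0.194 to 0.692), and in 36 of 710 vehicle cells, or 5.07% (3.58 to 6.95). Between 45 and 55 UMIs lay 53 ZD7288 cells and 22 vehicle cells. Without thinning, on each cell's own UMIs scaled to 5000, the counts were 0 ZD7288 cells, which allows a share of up to 0.106%, and 33 vehicle cells. The tail was found after the data were seen.

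To read the members in such cells without having chosen on them, cells were also ranked by 25 hypoxia genes that are not members, the other hypoxia genes without Ddit4. At least 10 UMIs of these genes per 5000 were found in 11 ZD7288 cells, or 0.388% (0.194 to 0.692), and in 25 vehicle cells, or 3.52% (2.29 to 5.15). Without thinning, scaled likewise, the counts were 0 ZD7288 cells and 20 vehicle cells. Between 8 and 12 UMIs lay 87 ZD7288 cells and 52 vehicle cells. The rich cells are a range of a score and are not called a type. Of the vehicle cells 19 passed both rules, and of the ZD7288 cells 0 did. The levels that follow were read from the UMIs that had not been drawn for this ranking. There the enzymes made up 5845 CPM in the 11 hypoxia-rich ZD7288 cells and 5885 CPM in the other ZD7288 cells. In the 25 hypoxia-rich vehicle cells they made up 13230.4 CPM, against 5057 CPM in the other vehicle cells. The ranking genes had 887 UMIs in these rich vehicle cells, 423 of Higd1a and 254 of Bnip3l, so this pair made up most of them. All of the 10 measured other hypoxia genes but Ddit4 are ranking genes, so their count follows in part from the choice of cells. Of these 10, 6 were higher there than in the other vehicle cells, against 21.3% of all measured genes. A further 2 were lower, against 27.1%, among them Adm at a ratio of 0.476 (0.204 to 0.945) on 8 UMIs.

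**Figure D3:**
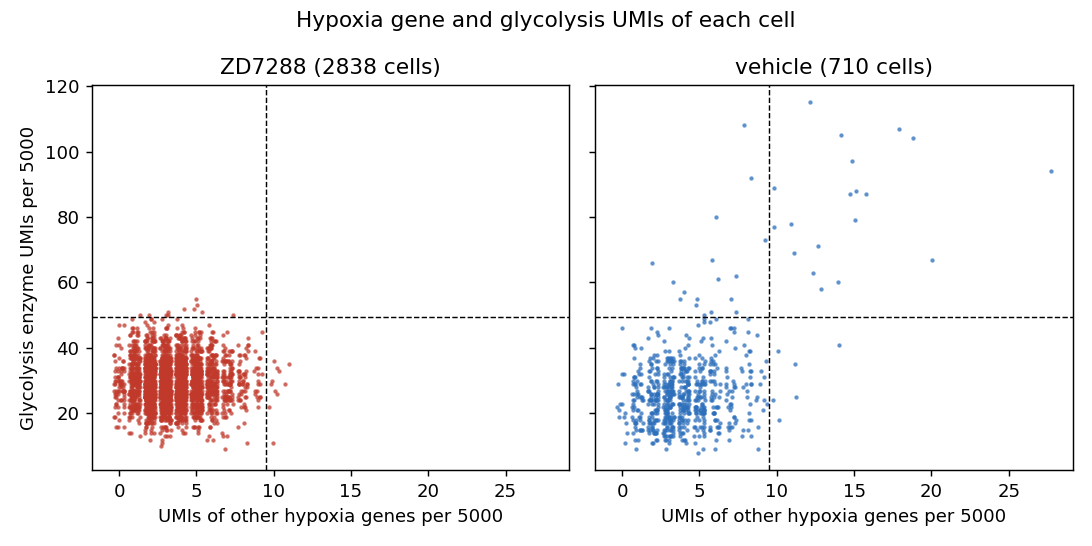
Each point is a cell thinned to 5000 UMIs, ZD7288 on the left and vehicle on the right, by its UMIs of 25 hypoxia genes outside the members (x axis, points spread sideways for sight) and of the 15 glycolysis enzyme genes (y axis). Dashed lines mark the thresholds of 10 and 50 UMIs; the upper right field holds 19 vehicle cells and 0 ZD7288 cells.

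The hypoxia-rich vehicle cells carried more RNA of every measured glycolysis enzyme than the other vehicle cells. All 12 were higher by the size rule, against 21.3% of all measured genes, and 7 were at least 2-fold higher, against 2.24%. Pfkl stood at 242 CPM in the rich cells and 27.3 CPM in the other vehicle cells, or 8.84-fold higher (6.96 to 11.2). Tpi1 was 4.31-fold higher (3.33 to 5.50), Ldha 3.68-fold (3.50 to 3.87) and Pgk1 3.53-fold (3.26 to 3.83). Ldha reached 4320.3 CPM in the rich cells, against 1173 CPM in the other vehicle cells. At the lower end Ldhb was 1.46-fold higher (1.28 to 1.65) and Pfkm, on 12 UMIs, 1.51-fold (0.771 to 2.69), an interval that includes 1.

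Isozymes parted in these cells. Pfkl held 88.8% (81.2 to 94.1) of the phosphofructokinase UMIs in hypoxia-rich vehicle cells, 46.7% (44.4 to 48.9) in the other ZD7288 cells and 55.5% (51.3 to 59.6) in the other vehicle cells. Ldha held 86.7% (85.1 to 88.2) of the lactate dehydrogenase UMIs in the rich cells, 66.0% in the other ZD7288 cells and 72.2% in the other vehicle cells. Aldoc held 14.7% (12.2 to 17.5) of the aldolase UMIs in the rich cells, 3.64% in the other ZD7288 cells and 4.52% in the other vehicle cells.

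The transporter and hypoxia-responsive members were higher in the rich cells too, except Slc16a1. Bnip3 had 592 CPM (519 to 674) in the hypoxia-rich cells and 69.4 CPM in the other vehicle cells, or 8.54-fold higher (7.35 to 9.895). Pdk1 had 117 CPM in the rich cells and 7.32 CPM in the others, or 16.0-fold higher (10.9 to 23.1). Slc2a1 had 99.2 CPM in the rich cells and 10.1 CPM in the others, or 9.84-fold higher (6.66 to 14.2). Vegfa was 3.59-fold higher (1.85 to 6.40) on 13 UMIs. Slc16a3 had 8 UMIs in the rich cells and 3 in the others, a ratio of 78.7 (18.9 to 461). Slc16a1, the other lactate transporter gene, had 0 UMIs in the rich cells, which allows up to 7.63 CPM, and 1.55 CPM in the others. Both HIF core motifs are in the windows of Bnip3, Pdk1, Slc2a1 and Slc16a1 and in 7.31% of all windows, and neither is in that of Slc16a3.

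Citric acid cycle genes differed less than the enzymes. Of the 11 measured 5 were higher, against 21.3% of all genes, 2 were lower, against 27.1%, and 0 reached 2-fold. Their median log2 ratio was 0.32, above the -0.039 of all genes and below the 1.32 of the enzymes. Pdha1 had the highest ratio, 1.72 (1.37 to 2.15), and Idh3a the lowest, 0.579 (0.342 to 0.921), on 18 UMIs. Mdh2, at 346 CPM in the rich cells and 336.5 CPM in the other vehicle cells, did not differ beyond counting error. Pck2 had 4 UMIs in the rich cells, or 10.2 CPM (2.77 to 26.0), and 5.34 CPM in the others.

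**Figure D4:**
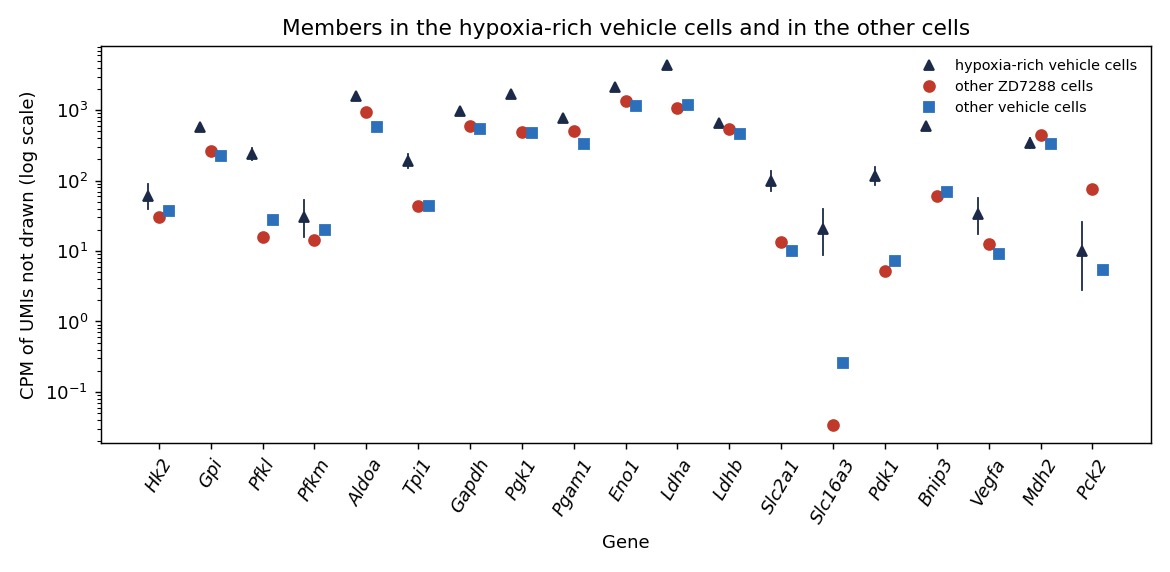
Levels of 19 members in CPM (log axis) in the 25 hypoxia-rich vehicle cells (dark triangles), the other ZD7288 cells (red circles) and the other vehicle cells (blue squares), read from UMIs not used to choose the cells; bars are exact 95% Poisson intervals. The glycolysis, transporter and hypoxia-responsive genes drawn lie higher in the rich cells, Pfkm within counting error. The transporter gene Slc16a1, with 0 UMIs in the rich cells, is not drawn. Mdh2, the citric acid cycle gene drawn, is level with the other vehicle cells, while of the 11 measured 5 were higher and 2 lower. Pck2 is high in the other ZD7288 cells.

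Outside the members, the named genes with at least 20 UMIs in the hypoxia-rich cells, no part in the ranking and the highest ratios were Aldoc, 10.0-fold higher, Ddit4, 8.72-fold, Igfbp5, 6.98-fold, and Cdo1, 6.37-fold, chosen after their values were seen. Aldoc encodes a brain aldolase, Ddit4 an inhibitor of the growth regulator mTOR, Igfbp5 a binding protein of insulin-like growth factors and Cdo1 cysteine dioxygenase. The rich cells had a median of 16165 UMIs and 6.42% mitochondrial UMIs, against 17411 UMIs and 5.85% in the other vehicle cells. They had medians of 46 cell cycle UMIs and 8 ATF4 list UMIs per 5000, against 40 and 9 in the other vehicle cells. The S phase genes had a ratio of 0.751 (0.695 to 0.812) of rich to other vehicle cells, and the G2/M genes of 1.33 (1.28 to 1.38). Neural stem cell markers summed to 9876 CPM in them and 7445 CPM in the other vehicle cells, and oligodendrocyte precursor markers to 2762 CPM in them and 2232 CPM in the others. Neuron markers summed to 269.5 CPM in them and 172 CPM in the others, a ratio of 1.57 (1.28 to 1.91), and astrocyte markers to 33.1 CPM in them and 33.9 CPM in the others. The part of these markers in the ratios of the members was not tested. Microglia markers and vascular and mesenchymal markers had 0 UMIs in the rich cells, which allows each sum up to 7.63 CPM.

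These few cells held 3.32% of all vehicle UMIs but a larger part of some members. They held 76.9% of the 13 Slc16a3 UMIs of the vehicle library, 36.6% of those of Pdk1, 24.0% of Pfkl, 22.7% of Slc2a1, 22.7% of Bnip3, 11.2% of Ldha and 3.39% of Mdh2. The remaining cells of both libraries were compared among cells of at least 5000 UMIs, from UMIs not drawn. There several members had ratios that differed from those of the whole libraries. Bnip3 had 60.6 CPM in the remaining ZD7288 cells and 69.4 CPM in the remaining vehicle cells, a ratio of 0.873 (0.809 to 0.944), and no longer reached the rule. Tpi1 came to 0.974 (0.885 to 1.07), Ldha to 0.905 (0.889 to 0.922) and Pdk1 to 0.715 (0.561 to 0.921). Slc2a1, level in the whole libraries, came to 1.32 (1.08 to 1.61).

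Other members still reached the size rule in the remaining cells. Pfkl was still lower, at 15.7 CPM with ZD7288 and 27.3 CPM with vehicle. Its ratio was 0.575 (0.506 to 0.656), nearer to 1 than the 0.447 of the whole libraries. Pfkm was still lower too, at 0.721 (0.623 to 0.837). Aldoa had a ratio of 1.62 (1.58 to 1.67) and Pgam1 of 1.56 (1.51 to 1.62). The enzyme counts were again 2 higher and 2 lower of 12, where 27.5% of all measured genes were higher and 13.5% lower. The median log2 ratio of the enzymes was 0.12. Idh2, at 1.53, Mdh2, at 1.34, and Mdh1, at 1.27, remained the 3 higher citric acid cycle genes, and Pck2 had a ratio of 14.2 (11.1 to 18.6). The plot of ratios sets both readings side by side.

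**Figure D5:**
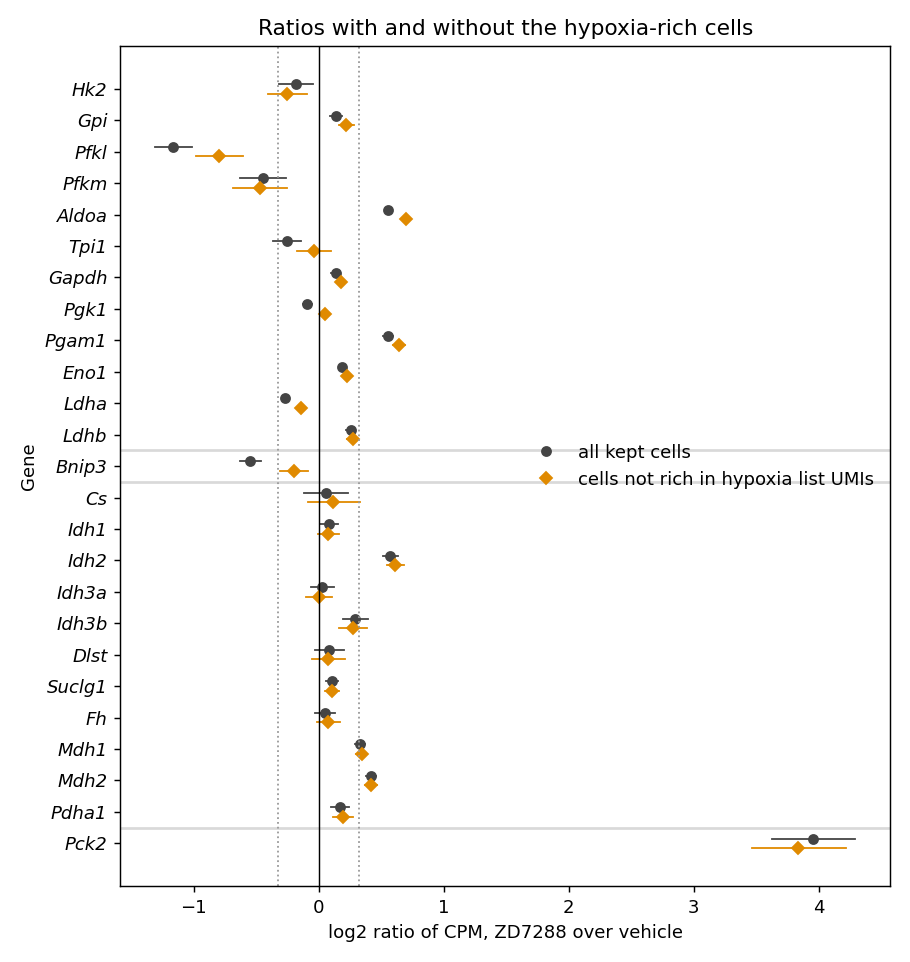
Log2 ratio of CPM, ZD7288 over vehicle, of the 25 measured members in all kept cells (dark circles) and in cells of at least 5000 UMIs that were not hypoxia-rich, from UMIs not drawn (orange diamonds), with exact 95% intervals for counting error; dotted lines mark the size rule. Without the rich cells Bnip3 and Tpi1 move toward 0, Pfkl moves part of the way, and Aldoa, Pgam1, Idh2 and Pck2 stay to the right.

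Cell cycle ranges were set by UMIs of S phase and G2/M genes per 2000 UMIs. Cells with at least 10 were split by the larger of both sums, and 16.9% of ZD7288 cells and 20.03% of vehicle cells lay between 8 and 12. The range with fewer than 10 held 27.0% of ZD7288 cells and 15.6% of vehicle cells. Bnip3 had 65.9 CPM with ZD7288 and 59.2 CPM with vehicle in the S range, 57.0 CPM with ZD7288 and 85.9 CPM with vehicle in the G2/M range, and 67.2 CPM with ZD7288 and 133 CPM with vehicle in the range with few cycle UMIs. Its level in vehicle cells thus differed between ranges more than in ZD7288 cells. Pdk1 had ratios of 1.06 (0.550 to 2.23), 0.441 (0.356 to 0.548) and 0.248 (0.166 to 0.376) in the same order, and Pfkl of 0.963 (0.686 to 1.38), 0.426 (0.378 to 0.481) and 0.304 (0.237 to 0.393). Hypoxia-rich vehicle cells were 1 of 96 cells of at least 5000 UMIs in the S range, 17 of 502 in the G2/M range and 7 of 112 in the range with few cycle UMIs. Their part in these ratios was not tested.

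The members that were higher with ZD7288 had ratios above 1 in each range, and the differences between ranges were not tested. Pck2 had 77.3 CPM with ZD7288 and 5.33 CPM with vehicle in the S range, 70.2 CPM with ZD7288 and 4.88 CPM with vehicle in the G2/M range, and 91.0 CPM with ZD7288 and 4.39 CPM with vehicle in the range with few cycle UMIs. Aldoa had ratios of 1.46, 1.43 and 1.37 and Idh2 of 1.39, 1.55 and 1.40 in this order, and Pgam1 of 1.58, 1.45 and 1.397. Mdh1, at 1.19, 1.28 and 1.27, and Mdh2, at 1.18, 1.35 and 1.34, did not reach the size rule in the S range. The enzymes together had ratios of 1.15 (1.12 to 1.17), 1.07 (1.07 to 1.08) and 1.09 (1.07 to 1.11).

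ATF4 response genes, which serve amino acid supply under stress, were higher in the ZD7288 library in 24 of 25 measured cases, against 26.9% of all measured genes. Members were therefore also compared between ZD7288 cells with at least 17 UMIs of 29 such genes per 2000, the upper quartile, and those with at most 9, the lower quartile. Pck2 is not on that list. It had 104 CPM in the 845 cells with many ATF4 list UMIs and 40.8 CPM in the 751 cells with few, a ratio of 2.55 (2.35 to 2.77). Slc2a1 had 19.6 CPM in cells with many and 8.01 CPM in cells with few, a ratio of 2.45 (2.02 to 2.97). Of the 12 measured enzymes 1 was higher, Hk2 at 1.46 (1.30 to 1.65), against 8.89% of all measured genes. Likewise 1 was lower, Pfkm at 0.633 (0.534 to 0.748), against 4.46%. The share of higher enzymes lies near that of all genes, and each count is a single gene. No citric acid cycle gene reached the size rule, and the enzymes summed to 5818 CPM in cells with many ATF4 UMIs and 5981 CPM in cells with few. The median mitochondrial share was 4.27% in cells with many and 5.51% in cells with few, and its part in these ratios was not tested.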

How the data were processed

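The deposited matrix holds raw UMI counts per gene and cell barcode of both libraries. Per the submitters' processing notes the authors used Cell Ranger, and version 3.0.2 of that software stands in the matrix header. Genome build, annotation and the rule for keeping barcodes: not given in the sources used here. The number after each barcode's hyphen was matched to the number that opens a sample title, and every direction rests on this match. Cells were kept with at least 1000 UMIs, 500 genes and at most 10% mitochondrial UMIs, which left 3135 of 3849 ZD7288 and 732 of 842 vehicle barcodes, with 73681950 UMIs in ZD7288 and 15611454 UMIs in vehicle cells. UMI counts were summed per library and scaled to CPM. Ratios have exact Clopper-Pearson intervals, levels exact Poisson intervals and shares exact binomial intervals. A count of 0 allows up to 3 counts, or 0.0407 CPM with ZD7288 and 0.192 CPM with vehicle. Simulated doublets marked 79 ZD7288 and 4 vehicle cells, which were kept. Members and lists were chosen with earlier results of these data known. Every measured member is named, and of each neighbouring list up to 4 measured genes past the size rule and farthest from 1. The symbols G6pc1, Pgd, Ccnb2, Lbr, Nek2 and Pecam1 were not matched. The pentose phosphate list is not reported here. Computations used Python 3.11.15, numpy 2.4.6, scipy 1.17.1 and scikit-learn 1.9.0, and the ratio and interval steps were tested on simulated data. Other settings covered scaling, cell filter, cell weight and depth, doublets, the CPM floor and the size rule.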

Additional observations from a re-analysis of the deposited data

How the results depend on the processing

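No paired analysis was possible because each group was 1 library, and for the same reason no replicate could be left out. Of the 9 members counted as higher or lower, 0 changed direction under any of the other settings run. With a 1.5-fold rule, Pfkl and Pck2 remained, so 0 glycolysis enzymes were higher, 1 was lower and 0 citric acid cycle genes were higher (background 10.1% higher and 5.2% lower). With scaling by the median gene ratio, and with totals without mitochondrial and ribosomal protein UMIs, 4 enzymes were lower (Tpi1 and Ldha were added) and Mdh1 was lost. Their medians of log2 ratios were then -0.0675 and -0.0521 for enzymes and 0.0154 and 0.0309 for citric acid cycle genes, and 6 and 8 of the 11 cycle genes were above 1. The enzyme median was 0.10 with cells weighted equally, 0.15 with cells thinned to 2000 UMIs, 0.14 with a floor of 50 CPM, where 0 enzymes were lower, and 0.17 or 0.19 without the hypoxia-rich or the glycolysis-rich cells. In both of these last settings, chosen after seeing the data, Bnip3 was lost and 1 enzyme was lower, because Pfkm fell under 20 CPM. Mdh1 was also lost under the stricter cell filter and, with Mdh2, in cells thinned to 2000 UMIs. This thinning added Cs and Idh3b as higher and Tpi1 as lower, at a log2 ratio of -0.41 for Tpi1. The log2 ratio of Pck2 was then 4.44. Equal weights for cells lost Pfkm and added Tpi1 as lower, at a log2 ratio of -0.43. Hk1 and Slc16a3 have no ratio at 2000 UMIs, where 1 library had 0 UMIs. The shallower vehicle library limits low members, such as Pck2 with 77 UMIs and Slc16a3 with 13.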
